A study of Mus musculus with 6 samples.

Results

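The 10 genes described here are the p53 family and its core regulators: Trp53, Trp63 and Trp73, the MDM inhibitors Mdm2 and Mdm4, the ARF locus Cdkn2a, the phosphatase gene Ppm1d, the ubiquitin ligase genes Rchy1 and Trim24 and the deacetylase gene Sirt1. They were chosen by name, and all 10 were measured, out of 19939 genes with a probe set of their own, Trp53 included. RNA of whole thymus from 10-day-old mice was hybridised to Affymetrix MoGene-1 arrays, 3 from RUNX2/MYC mice (genotype CD2-Myc/CD2-Runx2 on a C57BL6/CBA background) and 3 from wild-type (WT) mice labelled C57/CBA, which carry neither transgene. Each array is labelled as a separate biological replicate. In RUNX2/MYC mice the control elements of CD2, a surface molecule of T cells, drive both transgenes, so the transgenic cells are lymphoid while the RNA came from the whole organ. Mice with both transgenes develop thymic lymphoma, and at the age sampled the thymus is premalignant.

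p53, the product of Trp53, is a transcription factor that answers DNA damage and oncogene activity by inducing genes of cell cycle arrest, apoptosis and repair. MDM2 ubiquitinates p53 and sends it to the proteasome, MDM4 blocks its activation domain, and ARF, which is induced by oncogenes such as MYC, binds MDM2 and frees p53. Much of this control acts on protein stability and modification, which an array of RNA does not measure. In thymocytes p53 mediates apoptosis after DNA damage, and its loss leads to thymic lymphoma in mice.

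The Runx2 probe set differed the way the labels say. Its log2 signals were 11.73, 11.78 and 11.96 on RUNX2/MYC arrays and 7.94, 7.94 and 7.93 on WT arrays (log2 fold change 3.89, adjusted p = 4.27e-05 by limma, a moderated linear model over all probe sets). It was named through a list of the study that holds only probe sets called changed, so a difference was built into its choice. For mouse Myc, whose probe set may miss the transgene, the difference was -0.48 on the log2 scale (adjusted p = 0.119). Of the thymocyte markers, 9 of 10 were measured, and their mean log2 signals were 11.75 to 12.04 on RUNX2/MYC arrays and 12.08 to 12.16 on WT arrays. The lower mean came from 3 of the 9, which did not overlap between the groups, the lowest being Cd4 (log2 fold change -0.74, adjusted p = 0.091), and the list median was -0.025. Erythroid markers (3 of 6 measured) averaged 8.87 on RUNX2/MYC replicate 1 and 7.60 to 8.12 on the other 5 arrays, and adipocyte markers (8 of 8) averaged 8.68 on RUNX2/MYC replicate 2 and 7.02 to 7.45 on the others.

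None of the 10 genes passed an adjusted p of 0.05 in either direction, where 1.68% of all 35556 probe sets were called higher and 0.127% lower in RUNX2/MYC. At an unadjusted p under 0.05 the fit named 2, Trp53 (higher) and Trp63 (lower), where 21.3% of all probe sets did so. The methods' t-test with q values called 1, Trp53, as higher, where it called 3.41% of all probe sets higher and 0.695% lower. Without RUNX2/MYC replicate 2 or 3 or WT replicate 1 or 2, the fit called 3 or 4 of all probe sets higher and 0 lower. The groups did not overlap for 3 genes: Trp53 was higher on every RUNX2/MYC array (14.3% of all probe sets were higher in this way), and Trp63 and Trim24 were lower on every RUNX2/MYC array (10.1% of all probe sets). Of the 10 log2 fold changes, 5 were positive and 5 negative. Their median was 0.0084, against -0.0508 over all probe sets and 0.0652 over those above the median signal. A signal above the median of all probe sets, a log2 of 7.418, was found for 8 of the 10, and Trp73 and Cdkn2a lay below it.

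**Figure D1:**
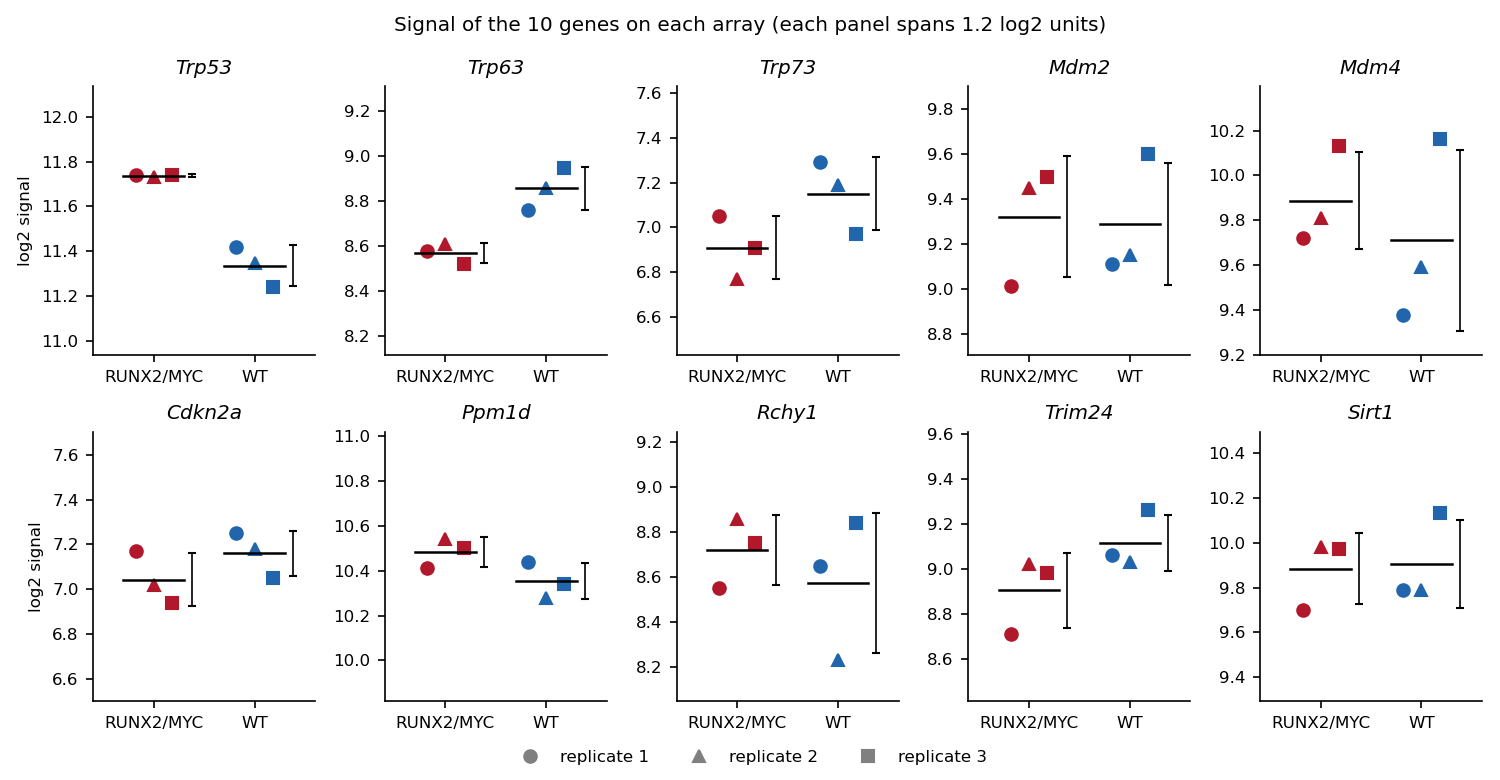
Log2 signal of each of the 10 genes on the 3 RUNX2/MYC and 3 WT arrays, with a panel for each gene, every vertical axis spanning the same range of log2 units, a line at each group mean and a bar of 1 SD on either side of it. Trp53 lies higher, and Trp63 and Trim24 lower, on all 3 RUNX2/MYC arrays, while the groups overlap in the other 7 panels.

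Trp53 had the largest absolute difference of the 10. Its log2 signals were 11.74, 11.73 and 11.74 on RUNX2/MYC arrays and 11.42, 11.35 and 11.24 on WT arrays. The RUNX2/MYC arrays lay within 0.01 of each other, and the gap to the nearest WT array was 0.313. The means were 11.74 ± 0.0028 in RUNX2/MYC and 11.34 ± 0.091 in WT (SD, n = 3 each), a log2 fold change of 0.40 (standard error 0.086, 95% interval 0.20 to 0.60) or a fold of 1.32. The adjusted p was 0.0741 by limma, and the exact permutation test (two-sided) gave 0.1, the smallest p that 3 against 3 arrays allow. The annotation does not pair the Trp53 probe set with the gene. Its name comes from a supplementary list of the study that holds only probe sets called changed there, so the choice of this probe set was not independent of the difference.

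The difference in Trp53 was positive under all 18 alternatives to the fit, from 0.27 with cyclic loess to 0.48 with each array centred on its median, while the adjusted p lay on both sides of the threshold, from 0.0125 to 0.293. It was under 0.05 for 7 of the alternatives, among them a filter on dim probe sets (adjusted p = 0.039), array weights (0.0125) and the methods' t-test with q values (q = 0.0337). The fit with array weights called 5766 of all 35556 probe sets higher and 7318 lower, so passing in it says little about Trp53. It was not under 0.05 with any single array left out (0.0696 to 0.293), nor with the arrays normalized again by quantiles (0.11), cyclic loess (0.161) or the 75th percentile (0.213).

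**Figure D2:**
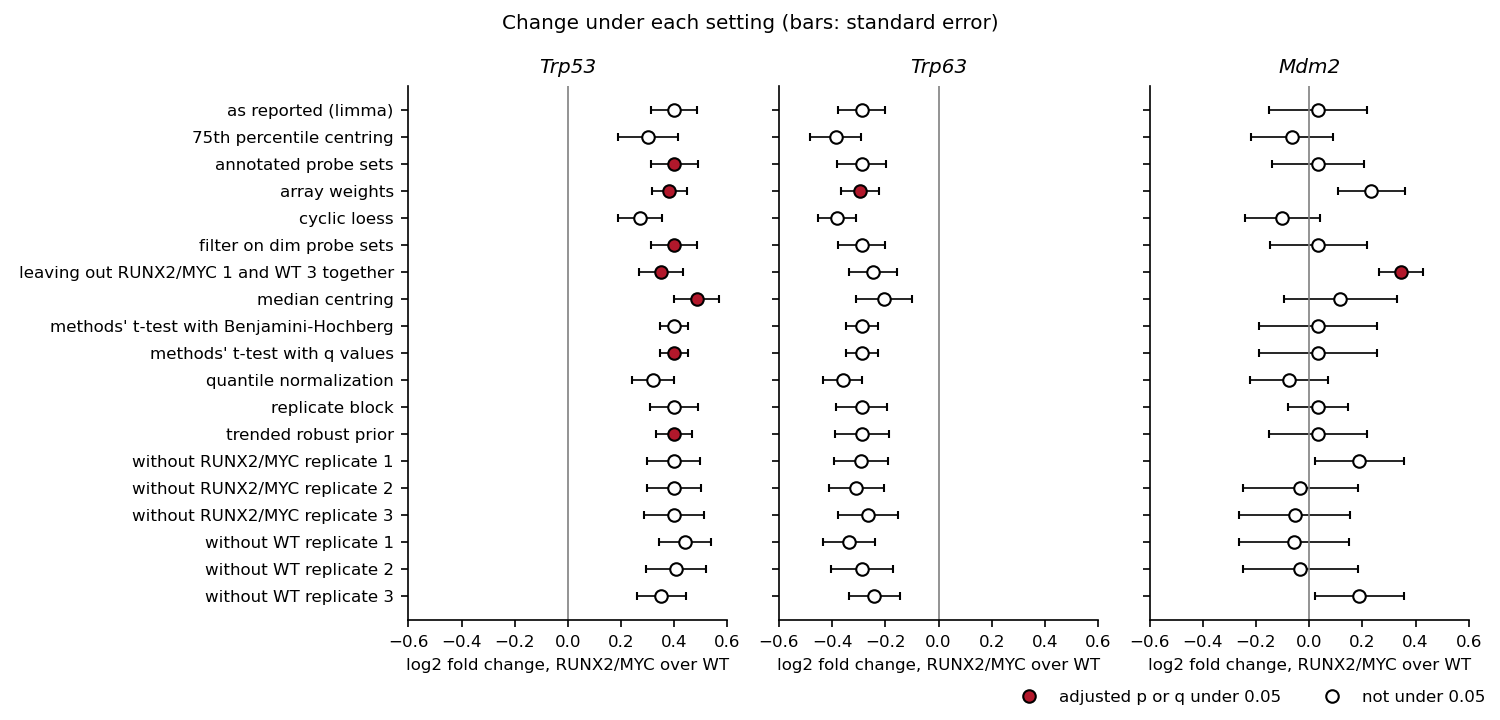
Log2 fold change (RUNX2/MYC over WT, horizontal axis) of Trp53, Trp63 and Mdm2 in the fit as reported and under each of 18 alternatives, with bars of 1 standard error and filled points where the adjusted p or q was under 0.05. Trp53 lies right of 0 and Trp63 left of 0 in every row, and Mdm2 lies on both sides.

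Both transgenes encode transcription factors with known core motifs, so the sequence around the Trp53 start site is shown. MYC with its partner MAX binds the E-box CACGTG, and RUNX proteins bind TGTGGT or TGCGGT. The window holds the 250 bases before and the first 50 bases from the start (RefSeq, GRCm38.p6, plus strand, 5′ to 3′), with the match to an E-box in capitals.
Trp53, chr11:69580109-69580408: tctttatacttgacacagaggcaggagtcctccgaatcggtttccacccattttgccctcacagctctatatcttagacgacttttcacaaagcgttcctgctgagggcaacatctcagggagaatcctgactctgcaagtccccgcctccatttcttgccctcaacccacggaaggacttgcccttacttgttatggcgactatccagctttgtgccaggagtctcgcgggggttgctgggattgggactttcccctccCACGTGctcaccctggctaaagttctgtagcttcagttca
The window held 1 CACGTG, whose first base is base 11 counted from the start site as base 1, and neither RUNX motif. Of all 32851 promoter windows, 7.15% held CACGTG. A match is a description of the letters, and no binding was measured.

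Over the 6 arrays the 5 genes whose signals were most correlated with Trp53 were Rnps1, a splicing factor (Pearson r = 0.9988), Mrpl15, a mitochondrial ribosomal protein (0.9976), Cacybp, a calcyclin-binding protein (0.9954), Nle1, a ribosome assembly factor (0.9953), and Ppif, cyclophilin D of the mitochondrial matrix (0.9947). These r values rest on 2 groups of 3 arrays, so they largely restate the difference between the groups. All 5 had positive log2 fold changes, 0.31 for Rnps1, 0.79 for Mrpl15, 0.65 for Cacybp, 0.35 for Nle1 and 0.68 for Ppif, and Mrpl15 (adjusted p = 0.0259), Cacybp (0.0473) and Ppif (0.0318) passed the test by limma.

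Trp63 encodes p63, which is needed for stratified epithelia and is expressed by thymic epithelial cells. Its log2 signals were 8.58, 8.61 and 8.52 on RUNX2/MYC arrays and 8.76, 8.86 and 8.95 on WT arrays, so every RUNX2/MYC array was lower. The means were 8.57 ± 0.045 in RUNX2/MYC and 8.86 ± 0.094 in WT (SD, n = 3 each), a log2 fold change of -0.29 (standard error 0.089, 95% interval -0.50 to -0.08, adjusted p = 0.153 by limma; exact permutation p = 0.1). It was negative under all 18 alternatives and past the threshold under 1, array weights (adjusted p = 0.0238). That fit called 7318 of all 35556 probe sets lower.

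Markers of thymic epithelium had lower values beside it. All 13 of the 13 had negative log2 fold changes (median -0.27), 9 were lower on every RUNX2/MYC array (10.1% of all probe sets were), and 1 passed the test, the desmocollin gene Dsc3 (-0.56, adjusted p = 0.0428). The smallest difference of the list was that of Krt14, the keratin 14 gene (-0.12, adjusted p = 0.411). The list averaged 8.78 to 8.85 on RUNX2/MYC arrays and 9.08 to 9.20 on WT arrays. The log2 signal of Trp63 minus the mean of the 13 markers was -0.20, -0.22 and -0.33 on RUNX2/MYC arrays and -0.32, -0.22 and -0.25 on WT arrays. These overlapped, with means of -0.25 ± 0.067 in RUNX2/MYC and of -0.26 ± 0.054 in WT (SD, n = 3 each). Some lists of other cells outside the thymocyte lineage also had mostly negative values. These were 5 of 5 B cell markers (median -0.25), 7 of 7 fibroblast markers (-0.17), 9 of 11 dendritic cell and macrophage markers (-0.135) and 4 of 5 endothelial markers (-0.036). Adipocyte and erythroid lists went the other way, with 7 of 8 (median 0.37) and 2 of 3 (0.64) positive. Each of these lists stood out on 1 array. Adipocyte markers averaged 8.68 on RUNX2/MYC replicate 2 and 7.02 to 7.45 on the others, and erythroid markers 8.87 on RUNX2/MYC replicate 1 and 7.60 to 8.12 on the others. The part of any of these cells in the Trp63 difference was not tested. In RNA of a whole organ, fewer cells of a type and less RNA per cell cannot be told apart.

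**Figure D3:**
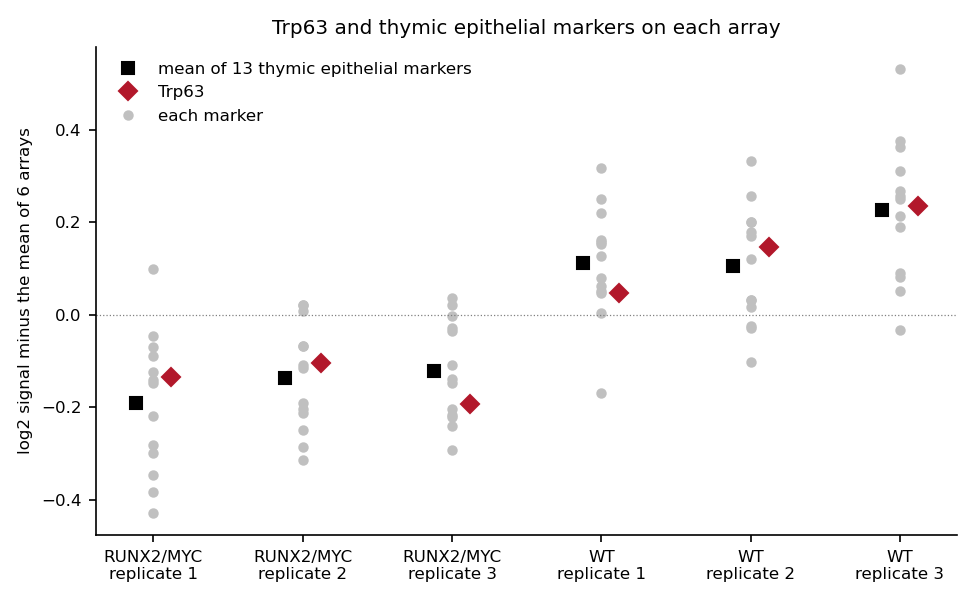
Log2 signal of Trp63 (diamonds), of each of 13 thymic epithelial markers (grey points) and of their mean (squares) on each array, each gene shown relative to its own mean over the 6 arrays. The marker mean and Trp63 lie below 0 on the 3 RUNX2/MYC arrays and above 0 on the 3 WT arrays.

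Trp73 encodes p73, the other relative of p53. Its log2 signals were 7.05, 6.77 and 6.91 on RUNX2/MYC arrays and 7.29, 7.19 and 6.97 on WT arrays. RUNX2/MYC replicate 1 lay above WT replicate 3, so the groups overlapped. The difference came to a log2 fold change of -0.24 (standard error 0.121, 95% interval -0.53 to 0.05, adjusted p = 0.29 by limma), and the exact permutation p was 0.2.

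Mdm2, the ubiquitin ligase of p53 and itself a p53 target, had log2 signals of 9.01, 9.45 and 9.50 on RUNX2/MYC arrays and 9.11, 9.15 and 9.60 on WT arrays. The lowest array was RUNX2/MYC replicate 1 and the highest WT replicate 3, and the spread within each group (SD 0.27 in RUNX2/MYC and 0.27 in WT) exceeded the difference between them. The log2 fold change was 0.03 (standard error 0.184, 95% interval -0.40 to 0.47, adjusted p = 0.917 by limma), an interval that runs from a fold of 0.757 to one of 1.38. Without these arrays, a choice made after seeing the data that raises the difference by its construction, the log2 fold change was 0.34, in a fit that called 14.2% of all probe sets higher and 20.2% lower. Without any 1 array it lay between -0.06 and 0.19.

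Mdm4, which restrains p53 without degrading it, had log2 signals of 9.72, 9.81 and 10.13 on RUNX2/MYC arrays and 9.38, 9.59 and 10.16 on WT arrays. WT replicate 3 lay above all 3 RUNX2/MYC arrays, and the other WT arrays lay below all 3. The log2 fold change was 0.18 (standard error 0.214, 95% interval -0.33 to 0.69, adjusted p = 0.612 by limma), the widest interval of the 10.

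Cdkn2a encodes p16, an inhibitor of cyclin-dependent kinases, and from another first exon ARF (p19Arf in the mouse), the inhibitor of MDM2. The array has 1 probe set for the locus, so the products were not measured apart. Its log2 signals were 7.17, 7.02 and 6.94 on RUNX2/MYC arrays and 7.25, 7.18 and 7.05 on WT arrays. The groups overlapped, and the log2 fold change was -0.12 (standard error 0.101, 95% interval -0.36 to 0.12, adjusted p = 0.479 by limma). At a signal below the median of all probe sets, no bound on a change of either product is drawn from this interval.

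Ppm1d, also known as Wip1, is a phosphatase that removes activating phosphates from p53 and its kinases. It had log2 signals of 10.41, 10.54 and 10.50 on RUNX2/MYC arrays and 10.44, 10.28 and 10.34 on WT arrays. Only RUNX2/MYC replicate 1 lay within the WT range. On the log2 scale the fold change was 0.13 (standard error 0.089, 95% interval -0.08 to 0.35, adjusted p = 0.381 by limma).

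Rchy1 encodes the ubiquitin ligase PIRH2 and is a p53 target. Its log2 signals were 8.55, 8.86 and 8.75 on RUNX2/MYC arrays and 8.65, 8.23 and 8.84 on WT arrays. WT replicate 2 stood lowest, and the other arrays of both groups were interleaved, and the groups differed by 0.14 on the log2 scale (standard error 0.172, 95% interval -0.26 to 0.55, adjusted p = 0.606 by limma).

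Trim24, a ubiquitin ligase of p53 that also reads histone marks, had log2 signals of 8.71, 9.02 and 8.98 on RUNX2/MYC arrays and 9.06, 9.03 and 9.26 on WT arrays. No RUNX2/MYC array reached the lowest WT array, but the gap between the groups was 0.009. The log2 fold change was -0.21 (standard error 0.119, 95% interval -0.50 to 0.07, adjusted p = 0.319 by limma; exact permutation p = 0.1), and it was negative under all 18 alternatives.

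Sirt1, a deacetylase that acts on p53, had log2 signals of 9.70, 9.98 and 9.97 on RUNX2/MYC arrays and 9.79, 9.79 and 10.13 on WT arrays. RUNX2/MYC replicate 1 was lowest and WT replicate 3 highest, and the log2 fold change was -0.02 (standard error 0.134, 95% interval -0.33 to 0.30, adjusted p = 0.945 by limma). Its promoter window is shown because it was the other of the 14 windows of these genes that held CACGTG (RefSeq, GRCm38.p6, minus strand, 5′ to 3′, with CACGTG and TGTGGT in capitals).
Sirt1, chr10:63338986-63339285: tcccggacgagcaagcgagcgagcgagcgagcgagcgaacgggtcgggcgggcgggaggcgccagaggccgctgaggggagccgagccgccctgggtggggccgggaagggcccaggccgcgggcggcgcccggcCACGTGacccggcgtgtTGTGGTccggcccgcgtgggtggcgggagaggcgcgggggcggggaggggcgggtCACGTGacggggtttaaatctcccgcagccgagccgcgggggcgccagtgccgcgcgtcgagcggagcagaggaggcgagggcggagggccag
Counted from the start site, the E-boxes begin at -115 and -43 and TGTGGT at -98, so the window holds motifs of both factors, where the Trp53 window holds 1 E-box and no RUNX motif.

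Windows were found for 9 of the 10 genes (Trp63 had none), several of them with more than 1 start site. Searched on both strands, TGCGGT was present in 3 of the 14 windows (Mdm2, and 1 window each of Trp73 and Rchy1; 6.45% of all windows), TGTGGT in 2 (Sirt1 and 1 window of Mdm4; 16.8%), and the variant E-box CATGTG in 0 (14.2%). The full p53 response element, with every letter matching and a spacer of up to 13 bases, was in 0 of the 14 windows and in 0.0731% of all. Windows of 300 bases miss sites outside them, and so strict a match is rare, so no lack of p53 sites is drawn from this. CACGTG reads the same on both strands, and no matches overlapped in these windows.

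**Figure D4:**
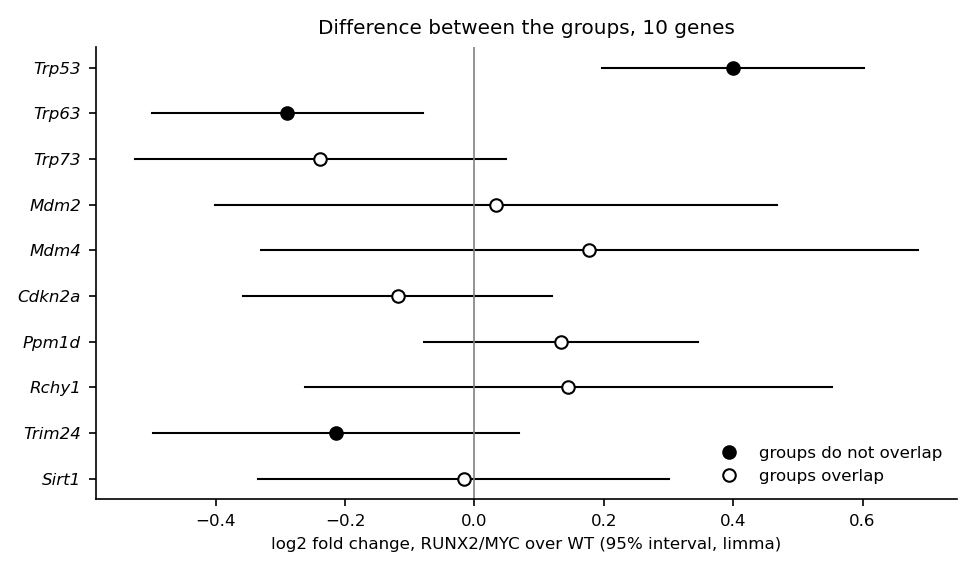
Log2 fold change (RUNX2/MYC over WT, horizontal axis) of each of the 10 genes with its 95% interval by limma, filled where the groups did not overlap. The intervals of Trp53 (0.20 to 0.60) and Trp63 (-0.50 to -0.08) leave out 0, and the other 8 include it.

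The samples that stood highest or lowest recurred. RUNX2/MYC replicate 1 was the lowest RUNX2/MYC array for 6 of the 10 genes, and WT replicate 3 was the highest WT array for 6 and the highest of all 6 arrays for 5. Within each group the pattern was array-wide among bright probe sets. Of those above the median signal, RUNX2/MYC replicate 1 was the lowest RUNX2/MYC array for 53.9%, and WT replicate 3 the highest WT array for 48.3%. An even share within a group would be 1 in 3. WT replicate 3 was the highest of all 6 arrays for 16.0% of these probe sets, near an even share of 1 in 6. That part was not array-wide. The 75th percentile of log2 signal was 8.92 on RUNX2/MYC replicate 1 and 9.04 and 9.02 on the other RUNX2/MYC arrays, and it was 8.97 on WT replicate 3 and 8.85 and 8.87 on the other WT arrays. RUNX2/MYC replicate 1 is also the array with the high erythroid markers, whose part in these values was not tested. Without both arrays, Trp53 (log2 fold change 0.35, adjusted p = 0.034) and Mdm2 were called higher and Trp73 lower (-0.40, adjusted p = 0.0349 by limma), and Mdm4 stood at 0.49 (adjusted p = 0.0536). In that fit 5035 probe sets (14.2%) were called higher and 7192 (20.2%) lower, against 596 and 45 with all arrays, and for Mdm2, Mdm4 and Trp73 the arrays left out were those of each group nearest to or beyond the other, so that the difference grew by construction.

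The ratio of Trp53 to each other gene within an array leaves out a constant shift of that array's log2 signals. It does not leave out scaling that differs with the signal. With cyclic loess the log2 fold change of Trp53 moved from 0.40 to 0.27. That of Cdkn2a, a dim probe set, moved up from -0.12 to 0.020, and that of Trp63 moved down from -0.29 to -0.38. For Mdm2 the log2 ratio was 2.73, 2.28 and 2.24 on RUNX2/MYC arrays and 2.31, 2.20 and 1.64 on WT arrays. These overlapped, with a difference between the groups of 0.37. The ratio was higher on every RUNX2/MYC array than on any WT array for 6 of the other 9 genes, with differences of 0.69 for Trp63, 0.64 for Trp73, 0.61 for Trim24, 0.52 for Cdkn2a, 0.42 for Sirt1 and 0.27 for Ppm1d. The same held for 72.7% of all 19938 other genes, and Trp53 itself did not overlap, so this count is not a result about the 9. For Mdm4 (0.22) and Rchy1 (0.25) the groups overlapped, as for Mdm2.

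Around these 10, a list of 60 other regulators of p53 was read, of which 59 were measured. By limma 3 were called higher in RUNX2/MYC and 0 lower, where it called 1.68% of all probe sets higher and 0.127% lower. Before adjustment, limma gave a p under 0.05 to 17 positive differences and 1 negative, and to 21.3% of all probe sets in either direction. The methods' t-test with q values called 8 of the 59 higher, where it called 3.41% of all probe sets higher. Smyd2, a lysine methyltransferase that methylates p53 and represses it, had log2 signals of 9.78, 9.88 and 9.74 on RUNX2/MYC arrays and 8.68, 8.56 and 8.47 on WT arrays (log2 fold change 1.23, standard error 0.095, adjusted p = 0.0137). Gnl3, the nucleolar protein nucleostemin, which binds MDM2, had 10.37, 10.34 and 10.45 on RUNX2/MYC arrays and 9.34, 9.34 and 9.49 on WT arrays (1.00, standard error 0.089, adjusted p = 0.0141). Prmt5, an arginine methyltransferase of p53 and of splicing proteins, had 11.43, 11.46 and 11.43 on RUNX2/MYC arrays and 10.72, 10.65 and 10.78 on WT arrays (0.72, standard error 0.081, adjusted p = 0.0159). These 3 did not overlap between the groups, and each difference was larger than that of Trp53. None of the list was called without RUNX2/MYC replicate 2 or 3 or WT replicate 1 or 2. Each of those fits called only 3 or 4 of all 35556 probe sets higher and 0 lower, so this is not a result about the list.

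The median log2 fold change of the 59 was 0.16, with 44 positive and 15 negative. Over all probe sets the median was -0.0508. Over those above the median signal, where all 59 lay, it was 0.0652. On every RUNX2/MYC array 20 of the 59 were higher and 1 lower, where 14.3% of all probe sets were higher and 10.1% lower. By role, the 6 kinases had a median of 0.44, the 8 measured nucleolar and ribosomal proteins that bind MDM2 or ARF one of 0.32 (7 of them higher on every RUNX2/MYC array), the 7 methylating and demethylating enzymes 0.23, the 8 ubiquitin proteases 0.20, the 16 ubiquitin ligases 0.14, the 8 acetylating and deacetylating factors -0.015 and the 6 binding partners -0.17. The largest differences that did not pass were those of Atm, the kinase that activates p53 after DNA breaks (0.78, standard error 0.24, adjusted p = 0.153), Set, an inhibitor of acetylation (0.65, adjusted p = 0.0666), and Atr, the kinase of stalled replication (0.55, adjusted p = 0.183). Probe sets of ribosomal proteins, Npm1 and Set may also read near-identical copies, so their values are uncertain. Of 10 proliferation markers 9 were measured, with a median log2 fold change of 0.068. They averaged 11.39 to 11.53 on RUNX2/MYC arrays and 11.42 to 11.45 on WT arrays. On every RUNX2/MYC array 3 of the 9 were higher and 1 lower, beside the shares of all probe sets given above. The part of proliferation in the regulator values was not tested.

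Of 47 transcriptional targets of p53, 44 were measured. By limma 0 were called higher and 0 lower, where it called 1.68% of all probe sets higher and 0.127% lower. Before adjustment, limma gave a p under 0.05 to 6 positive differences and 3 negative, and to 21.3% of all probe sets in either direction. The methods' t-test with q values called 2 of the 44 higher, where it called 3.41% of all probe sets higher. Cdkn1a, Bax and Gdf15 have no probe set of their own in the annotation and were not analysed here. The median log2 fold change of the 44 was 0.044, with 27 positive and 17 negative, against -0.0508 over all probe sets and 0.0652 over those above the median signal. On every RUNX2/MYC array 9 of the 44 were higher and 5 lower, where 14.3% of all probe sets were higher and 10.1% lower. Targets of arrest (11 measured) had a median of -0.040, those of apoptosis (14) 0.027, of repair and metabolism (14) 0.10, and of feedback on p53 (5, of which Mdm2, Ppm1d and Rchy1 are among the 10) 0.11. The largest differences were those of Ephx1, an epoxide hydrolase (0.47, standard error 0.144, adjusted p = 0.152), Perp, a desmosome protein of apoptosis and of epithelia (-0.39, standard error 0.103, adjusted p = 0.112), and Pidd1, a death domain protein (0.39, standard error 0.105, adjusted p = 0.122). Perp, at 8.82, 9.09 and 8.94 on RUNX2/MYC arrays and 9.28, 9.30 and 9.44 on WT arrays, was lower beside the epithelial markers given above, and their part in it was not tested.

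**Figure D5:**
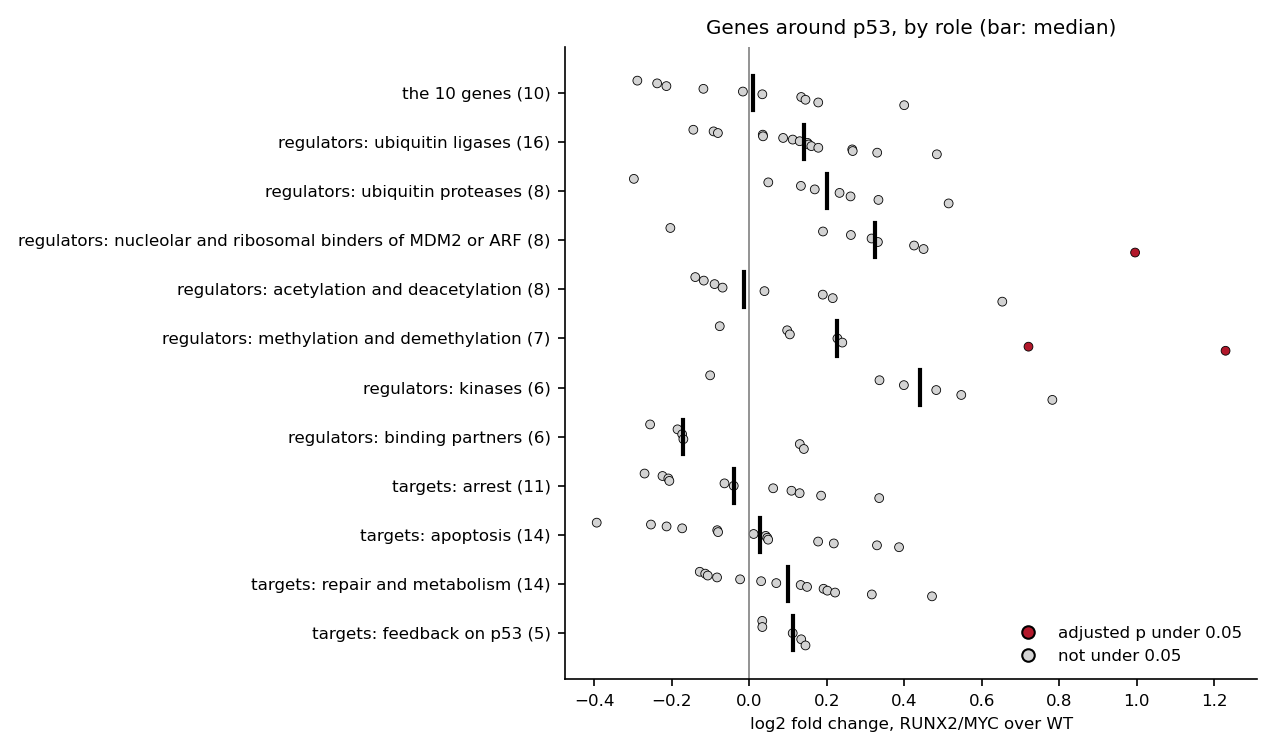
Log2 fold change (RUNX2/MYC over WT, horizontal axis) of the 10 genes, of the other regulators of p53 and of its target genes, grouped by role, with the number measured in brackets, a bar at each median and filled points where the adjusted p was under 0.05. The points past the threshold are Smyd2, Gnl3 and Prmt5, and the target groups lie on both sides of 0.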

How the data were processed

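Whole-thymus RNA of 3 RUNX2/MYC and 3 WT mice was labelled with biotin and hybridised to Affymetrix MoGene-1 arrays. The deposited table holds log2 signals, which the authors made with RMA (background correction, normalization between arrays and summary per probe set). Affymetrix Expression Console 1.4 is named in the submitters' notes, and Partek Genomics Suite, with an adjustment for GC content, in the methods. The genome build is not given in the sources used here. The table has 35556 probe sets, of which 21789 carry 1 gene symbol, 1621 carry several and 12146 are unnamed. Where a gene had several probe sets of its own, the brightest was used. Trp53 and Runx2 were named through the supplementary list of the study.

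The groups were compared with limma 3.58.1 in R 4.3.3 (lmFit and eBayes, Benjamini-Hochberg over all probe sets, threshold 0.05). The study's ANOVA is called the methods' t-test. No 2 arrays were identical, log2 signals ran from 3.75 to 14.56 and array medians from 7.31 to 7.49, and the number of arrays limits the precision. Exact permutation tests used SciPy 1.17.1. The fits were tested on simulated data. Alternatives changed the scaling, the filter, the probe sets tested, the weights (by the gene-by-gene method, since REML did not converge), the variance prior, the test, the block and the arrays. Each of the 10 genes has 1 probe set, so alternatives with other probe sets were not run.

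All 10 genes are named, with those of the other lists that passed the test and the 3 of largest difference that did not, the extremes of marker lists, and the 5 most correlated with Trp53. The genes and lists were chosen with earlier results of these data known.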

Additional observations from a re-analysis of the deposited data

How the results depend on the processing

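Every value here is RUNX2/MYC over WT, with 18 alternatives of which 6 left out 1 array. Trp63, Trim24 and Trp73 kept negative log2 fold changes, and Trp53 and Mdm4 positive ones, under each alternative run for them (the dim filter drops Trp73 and Cdkn2a). Of the 10 genes, 1 was called higher (Trp53) with annotated probe sets alone, a filter on dim probe sets, the methods' t-test with q values and a trended robust prior (log2 fold change 0.40 in each; adjusted p or q 0.0367, 0.039, 0.0337 and 0.0271), with array weights (0.38) and with median centring (0.48). Without RUNX2/MYC replicate 1 and WT replicate 3 together, chosen after seeing the data, 2 were higher (Trp53 at 0.35, and Mdm2) and 1 lower. Array weights called 2 lower (Trp63 and Trp73), in a fit that called 7318 of all 35556 probe sets lower.

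Mdm2 turned to -0.063 with 75th percentile centring, -0.10 with cyclic loess and -0.076 with quantile normalization, and lay between -0.056 and 0.19 with 1 array left out. Sirt1 turned to 0.12 with array weights, 0.19 without both arrays and 0.067 with median centring, and lay between -0.074 and 0.096 with 1 array left out. Cyclic loess turned Cdkn2a to 0.020 and Ppm1d to -0.016, and Rchy1 lay between -0.028 and 0.28 with 1 array left out. The cause of these turns was not tested.

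Over all probe sets, the counts higher and lower (596 and 45 as reported) were 1219 and 225 with annotated probe sets alone, 5766 and 7318 with array weights, 1247 and 145 with the dim filter, 5035 and 7192 without both arrays, 1213 and 247 with the methods' q values and 1042 and 104 with the trended robust prior. Higher counts were 209 with 75th percentile centring, 915 with median centring and 162 with the methods' t-test and Benjamini-Hochberg. Lower counts were 124 with cyclic loess and 98 with quantile normalization. With 1 array left out they ran from 3 to 872 higher and from 0 to 718 lower. The filter and the annotated set test fewer probe sets, and the cause of the other shifts was not tested.

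Other regulators called higher (3 as reported) numbered 8 with annotated probe sets alone, the dim filter or the methods' q values, 7 with median centring or the trended robust prior, 20 without both arrays, 26 with array weights (where 1 was lower) and 0 to 4 with 1 array left out, with 0 when RUNX2/MYC replicate 2 or 3 or WT replicate 1 or 2 was missing. Each fit with 1 of those arrays missing called only 3 or 4 of all probe sets higher. Targets called (0 as reported) numbered 9 higher and 4 lower with array weights, 6 higher and 1 lower without both arrays, 2 higher with the methods' q values, 1 lower with cyclic loess or quantile normalization, and 0 to 1 higher with 1 array left out.

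Whether the replicate numbers pair the samples cannot be settled with 3 arrays per group. Same-numbered arrays correlated, as deviations from their group means, at 0.50, -0.15 and 0.61 for replicates 1, 2 and 3. The values for replicates 3 and 1 were the highest between the groups, while RUNX2/MYC replicate 2 correlated best with WT replicate 3 (0.21). The replicate block gave 1654 probe sets higher and 763 lower, 9 other regulators higher, 0 of the 10 genes called in either direction, and Trp53 at 0.40 (adjusted p = 0.0536).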
